A study of Homo sapiens with 8 samples.

Results

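The IL-18 and IL-1 receptor family was followed in K562 cells, an established human leukaemia line with erythroid features. The family comprises 10 genes, the receptor chains IL18R1, IL18RAP, IL1R1, IL1R2, IL1RAP, IL1RL1, IL1RL2 and SIGIRR, the cytokine IL18 and its soluble inhibitor IL18BP. These genes were chosen by family membership and with their estradiol-to-vehicle differences on these arrays already known, so those differences are given as a description and no test is drawn from them. All probe sets annotated to a member symbol alone were taken, 19 of the 54675 on the array, and they stood for 10 of 19775 measured genes.

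Both groups carried the same stably introduced fusion, p42-C/EBPα-ER, which joins the full-length form of the myeloid transcription factor C/EBPα to the oestrogen receptor. Adding estradiol sends such a fusion into the nucleus. The estradiol group (4 arrays) received 1 µM beta-estradiol and the vehicle group (4 arrays) received ethanol, and both were collected after 6 h of treatment. Neither the promoter that drives the fusion nor whether the cells were a single clone is known here. A group without the fusion was not analysed here, and an effect of estradiol itself cannot be told apart from one of the fusion. How the replicates were separated is not described beyond their titles, which name them biological, so a p-value reflects only how far these arrays spread. Values are log2 expression levels per probe set, and levels of different probe sets cannot be compared as amounts of RNA.

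The signalling receptors of this family pair a chain that binds the cytokine with an accessory chain. Both of these chains carry a cytoplasmic TIR domain, a docking module shared with Toll-like receptors. The joined TIR domains recruit the adaptor MYD88 and the IRAK kinases, which lead through TRAF6 and the kinase MAP3K7 to NF-kB. In blood, the IL-18 receptor is best known from natural killer cells and T cells, and the IL-33 receptor chain IL1RL1, also named ST2, from mast cells, basophils and type 2 lymphoid cells.

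Array medians ran from 4.97 to 5.08 and lower quartiles from 3.67 to 3.74, and the lowest correlation between arrays over all genes was 0.991. Of 8 measured K562 and erythroid markers all had mean levels above the median of the table, among them HBZ, an embryonic globin gene, at 13.97 with vehicle, and 3 fell with estradiol, HBE1, GATA1 and KLF1. Their mean ran from 10.69 to 10.72 with estradiol and from 10.89 to 10.95 with vehicle. Markers of the cells that usually carry these receptors gave no calls: 0 of 10 T and NK cell markers and 0 of 5 mast cell and basophil markers passed the test (limma, adjusted p below 0.05). The mean of the T and NK cell markers ran from 5.22 to 5.35 with estradiol and from 5.27 to 5.40 with vehicle, and that of the mast cell and basophil markers from 4.24 to 4.31 and from 4.23 to 4.56. Of the T and NK cell markers 4 of 10 had mean levels below the median of the table, and of the mast cell and basophil markers 4 of 5. CD3D, a T-cell receptor subunit, had a level of 7.99 with vehicle and 7.92 with estradiol. PRF1, CD247 and NCAM1 stood at 6.05, 5.77 and 5.58 with vehicle, and CD3E, NKG7 and KLRD1 at 5.24, 4.31 and 4.10. Of 9 monocyte and neutrophil markers LYZ rose and ELANE fell, and of 4 B cell markers 0 passed. These means ran from 4.64 to 4.71 with estradiol and 4.65 to 4.78 with vehicle, and from 5.15 to 5.20 and 5.19 to 5.28.

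Estradiol raised both chains of the IL-18 receptor, IL18RAP by 8.35-fold and IL18R1 by 4.34-fold. IL1R1, the signalling receptor for IL-1, was 1.43-fold higher at a very low level, and IL1RL1 was higher on some of its probe sets. The cytokine IL18, its inhibitor IL18BP, the decoy IL1R2, the shared accessory chain IL1RAP, the IL-36 receptor chain IL1RL2 and the inhibitory receptor SIGIRR showed differences of −0.10 to 0.09 on the log2 scale. In all, 3 of 10 members were called by limma over all genes and 3 of those were rises, beside 17.9% of all genes called and 8.29% called as rises. For the same 3 members no estradiol array reached a vehicle array, beside 24.1% of all genes. The median difference over the members was 0.05, and over all genes −0.03. Since the contrast itself had chosen the members, nothing is read from these shares.

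**Figure D1:**
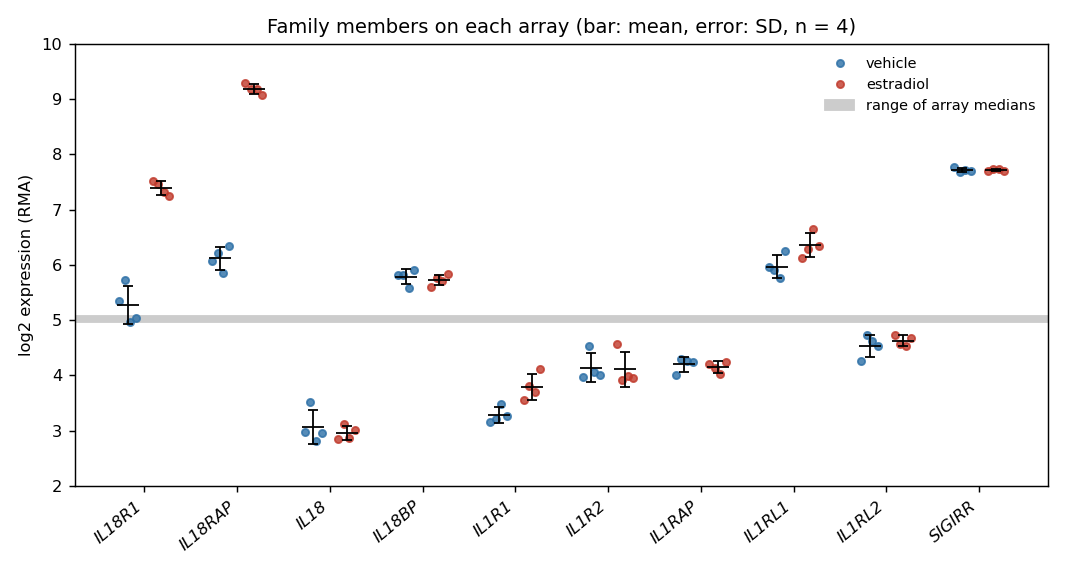
Log2 expression of the 10 members on each array, at each gene's brightest probe set, with vehicle in blue and estradiol in red (black bars: mean and SD, n = 4; grey band: range of the array medians, 4.97 to 5.08). IL18RAP and IL18R1 stand well apart between the groups, while most other members overlap.

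IL18RAP encodes the accessory chain of the IL-18 receptor, without which IL-18 is bound but gives no signal. On its only probe set, 207072_at, the estradiol arrays read 9.30, 9.19, 9.18 and 9.07 and the vehicle arrays 6.07, 6.22, 5.86 and 6.34. Every estradiol array lay far above every vehicle array. The mean was 9.19 ± 0.09 (SD, n = 4) in the estradiol group and 6.12 ± 0.21 in the vehicle group, which differ by 3.06 ± 0.10 on the log2 scale (SE of limma). The vehicle level was higher than that of 52.1% of genes, and the rise was the 9th largest of all genes.

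IL18R1 encodes the chain that binds IL-18 directly. Its only probe set, 206618_at, read 7.52, 7.47, 7.32 and 7.25 with estradiol against 5.34, 5.73, 4.97 and 5.05 with vehicle. The groups did not overlap, and the vehicle arrays were spread more widely than the estradiol arrays. Means were 7.39 ± 0.13 (SD, n = 4) and 5.27 ± 0.35, a difference of 2.12 ± 0.16 (SE), which ranked 28th among all rises. The vehicle mean lay just above the range of the array medians, and 2 of the 4 vehicle arrays, at 4.97 and 5.05, reached into that range. The vehicle mean was above that of 39.1% of genes. Detection calls were not used here, so how far this level lay above background is unknown, and a fold from it is a fold of signal.

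**Figure D2:**
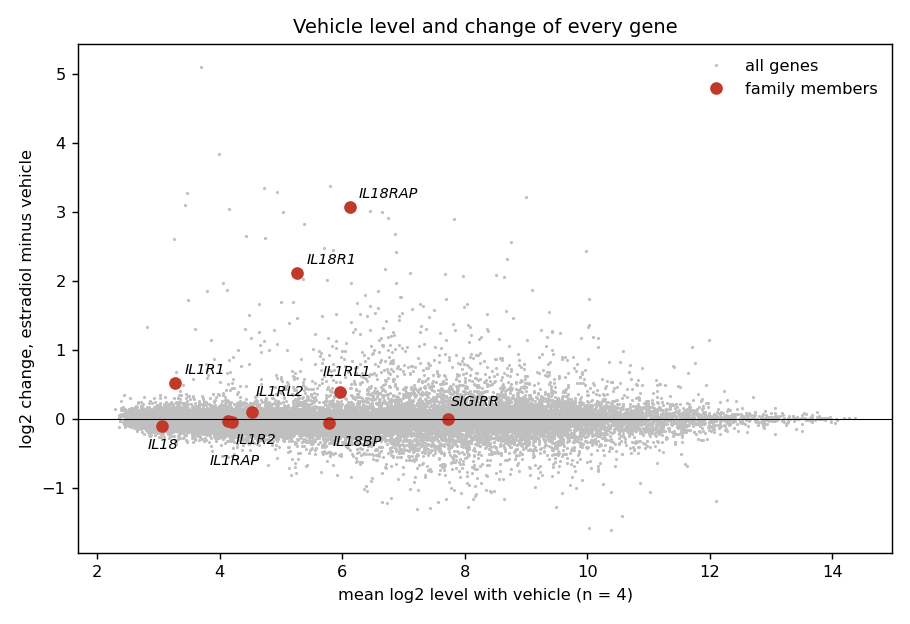
Mean log2 level with vehicle (horizontal axis, n = 4) against the log2 difference of estradiol minus vehicle (vertical axis) for all 19775 genes in grey and the 10 members in red. IL18RAP and IL18R1 lie near the upper edge of the cloud at vehicle levels of 6.12 and 5.27, and the other 8 members lie within or close to the bulk of genes with like levels.

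The 5 genes outside the family whose vehicle-centred values over the 8 arrays lay closest to those of IL18RAP were EREG, ANXA1, TNFSF10, KCNE3 and PNRC1, with root mean square distances of 0.17, 0.19, 0.19, 0.20 and 0.21 on the log2 scale. Their differences were 2.99, 3.22, 3.04, 3.01 and 2.99, beside 3.06 for IL18RAP. EREG encodes the growth factor epiregulin, ANXA1 the phospholipid-binding annexin A1, and TNFSF10 the death ligand TRAIL. With only 2 conditions the measure picks genes with a rise of like size.

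Neither the ligand of the IL-18 receptor nor its soluble inhibitor was called. IL18, the cytokine itself, read 2.84, 3.11, 2.87 and 3.02 with estradiol and 2.97, 3.52, 2.81 and 2.96 with vehicle, a difference of −0.10 ± 0.14 (SE). The groups overlapped, and all 8 values lay below the lower quartiles of the arrays. IL18BP, the secreted protein that traps IL-18, had 3 probe sets with levels from 5.38 to 5.91, above the array medians, and differences of −0.13, −0.02 and −0.06. The groups overlapped on each of the 3.

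In the arrangement of the genome, 6 members lie together on chromosome 2 in the order IL1R2, IL1R1, IL1RL2, IL1RL1, IL18R1 and IL18RAP (RefSeq gene order, GRCh38.p14). All 3 called members were among these 6, and the 4 members located elsewhere (IL18, IL18BP, IL1RAP and SIGIRR) were not called. Over all genes 17.9% were called. Among the 3, IL1R1 was called on 1 of its 2 probe sets, at a vehicle level of 3.28. Since the contrast had chosen the members, nothing is read from where the called ones lie. IL18R1 and IL18RAP are neighbours with only a pseudogene listed between them. Going along the row the differences were −0.03, 0.51, 0.09, 0.38, 2.12 and 3.06, so the largest stood at its far end. Beyond IL18RAP, the microRNA gene MIR4772 and SLC9A4 come next and were not analysed here. SLC9A2, a sodium-hydrogen exchanger and the next measured gene, differed by −0.0041 ± 0.07 (SE, limma adjusted p = 0.983), with SLC67A2 at 0.09 ± 0.11 (adjusted p = 0.687), TMEM182 at −0.22 ± 0.09 (adjusted p = 0.164) and LINC01831 at −0.10 ± 0.09. On the other side LINC01127 differed by 0.04 ± 0.09, the kinase gene MAP4K4 by −0.05 ± 0.05 and CREG2 by 0.01 ± 0.06. Of the 8 flanking genes 1 was called, beside 17.9% of all genes. It was the farthest on that side, the small nucleolar RNA gene SNORD89, whose probe set was higher by 0.31 ± 0.07 (adjusted p = 0.0124). Which transcript that probe set reads was not analysed here.

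**Figure D3:**
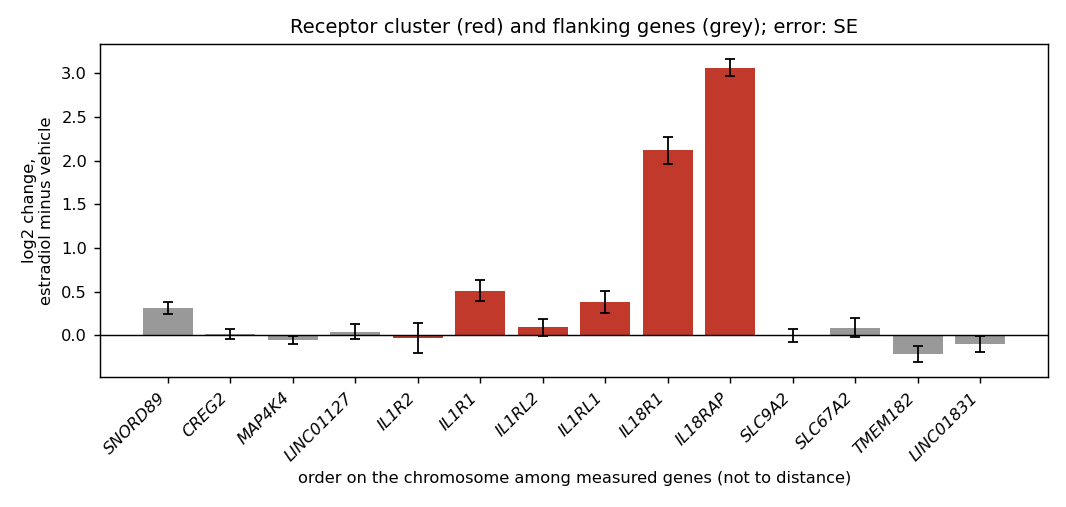
Log2 difference of estradiol minus vehicle (error bars: SE) for the 6 members of the chromosome 2 cluster in red and 4 measured genes on either side in grey, in chromosomal order but not to distance. The bars of IL18R1 and IL18RAP reach 2.12 and 3.06, and SLC9A2, the next measured gene, stands at −0.0041.

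The start regions of the chains with the largest differences are shown because IL18R1 and IL18RAP are neighbours that were both higher with estradiol. Each is the 250 bases before the outermost RefSeq start, 5′ to 3′ on the plus strand of GRCh38.p14, at chr2:102418371-102418620 for IL18RAP and chr2:102355546-102355795 for IL18R1. Capitals mark, on either strand, AGATAA, a motif of the GATA factors, TTGCNNAA for C/EBP factors, TGANTCA for AP-1 and GAGGAA for ETS factors and PU.1.
IL18RAP: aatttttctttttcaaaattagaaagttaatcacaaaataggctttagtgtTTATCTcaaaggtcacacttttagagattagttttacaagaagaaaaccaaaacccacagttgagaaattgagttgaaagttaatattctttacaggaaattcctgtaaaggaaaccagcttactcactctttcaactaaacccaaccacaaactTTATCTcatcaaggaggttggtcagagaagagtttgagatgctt
IL18R1: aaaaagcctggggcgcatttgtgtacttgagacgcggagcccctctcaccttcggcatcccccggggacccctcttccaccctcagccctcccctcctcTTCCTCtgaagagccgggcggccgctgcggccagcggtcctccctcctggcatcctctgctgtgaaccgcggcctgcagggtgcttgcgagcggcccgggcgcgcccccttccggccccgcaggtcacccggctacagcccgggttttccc

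The IL18RAP window had a GC content of 32.4% and 0 CpG dinucleotides, and the IL18R1 window 70.4% and 21. Over all 35116 RefSeq windows of this length the quartiles of GC content were 46.4% and 68.0%, so these outermost windows lay on opposite sides of the middle range. A second IL18R1 window, at chr2:102356033-102356282, had 56.8%, within the quartiles, and held AGATAA 41 bases before its start. The outermost IL18RAP window held AGATAA 2 times, beginning 199 and 44 bases before the start, and none of the other 3 motifs. An overlapping IL18RAP window, at chr2:102418399-102418648, held the same 2 sites, so they enter the window count below more than once. A further IL18RAP window, at chr2:102422910-102423159 with 41.6% GC, held no AGATAA. The IL18R1 window held GAGGAA 1 time, 151 bases before the start. Matches on either strand were counted. TTGCNNAA was in 0 of the 22 windows of 9 members (IL18 had no entry), beside 9.1% of all windows. AGATAA was in 5 of the 22 beside 9.2%, TGANTCA in 1 beside 6.6% and GAGGAA in 9 beside 23.6%. TTCNNNGAA (STAT factors) and TATAAA (the TATA box) were searched as well and were in 2 and 3 of the 22, beside 6.6% and 10.7%. Windows of 1 gene can overlap, and a match or its absence in these letters says nothing of binding.

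IL1RL1, the chain that binds IL-33, had 4 probe sets, and they disagreed. The brightest, 242809_at, stood for the gene and read 6.13, 6.29, 6.65 and 6.35 with estradiol against 5.96, 5.90, 5.77 and 6.26 with vehicle. The groups overlapped through vehicle replicate 4, and the difference was 0.38 ± 0.13 (SE), 1.30-fold, not called. Probe set 207526_s_at read 5.14, 5.04, 4.85 and 4.95 against 4.18, 3.81, 4.53 and 4.50. These groups did not overlap, and the difference of 0.74 ± 0.15, 1.67-fold, was called in the fit over all probe sets. The remaining probe sets, 234066_at and 210442_at, differed by 0.20 ± 0.08 and −0.03 ± 0.08 without a call. Which transcript forms each probe set reads, the membrane receptor or the secreted decoy, was not analysed here. With the mean of its probe sets the gene differed by 0.32 and was called.

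IL1RL1 has more than 1 start in RefSeq, and the windows before the outermost (chr2:102311313-102311562) and the inner one (chr2:102337007-102337256) are given because the disagreeing probe sets leave its level unsettled. The arrays do not tell which start was used. Capitals are as above.
IL1RL1 outermost start: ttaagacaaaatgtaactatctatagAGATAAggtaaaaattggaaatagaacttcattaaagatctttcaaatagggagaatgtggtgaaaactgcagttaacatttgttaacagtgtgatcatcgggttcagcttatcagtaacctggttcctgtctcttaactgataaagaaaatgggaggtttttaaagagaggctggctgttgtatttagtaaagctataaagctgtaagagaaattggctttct
IL1RL1 inner start: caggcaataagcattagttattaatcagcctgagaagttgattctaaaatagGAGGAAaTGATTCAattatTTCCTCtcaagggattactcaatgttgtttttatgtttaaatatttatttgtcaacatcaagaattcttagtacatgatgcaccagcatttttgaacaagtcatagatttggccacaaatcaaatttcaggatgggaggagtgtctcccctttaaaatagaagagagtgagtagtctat

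Both windows were poor in GC, at 33.6% and 33.2%. The outer window held AGATAA 224 bases before the start. The inner window held TGANTCA 191 bases before the start, between GAGGAA at 198 and 179 bases before it.

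IL1R1, the signalling receptor for IL-1, read 3.55, 3.81, 3.69 and 4.12 with estradiol on 202948_at and 3.15, 3.22, 3.48 and 3.27 with vehicle. The groups did not overlap, and the difference was 0.51 ± 0.12 (SE). Its vehicle mean of 3.28 lay below the lower quartile of every array, above only 8.31% of genes. The second probe set, 215561_s_at, overlapped between the groups and differed by 0.10 ± 0.09, so the call rested on 1 of 2 probe sets at a level not shown to be above background.

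IL1R2, the decoy receptor that binds IL-1 without signalling, differed by −0.03 ± 0.17 on 211372_s_at and by 0.02 ± 0.09 on 205403_at. On the former, estradiol replicate 1 read 4.57 and vehicle replicate 2 read 4.53, while the other 6 arrays lay between 3.91 and 4.05. IL1RAP, the accessory chain that IL1R1, IL1RL1 and IL1RL2 share, ran from 3.24 to 4.29 over both probe sets, below the array medians, with differences of −0.05 ± 0.08 and 0.0023 ± 0.06. IL1RL2, the IL-36 receptor chain, read 4.53 to 4.74 with estradiol and 4.26 to 4.72 with vehicle, a difference of 0.09 ± 0.10. The groups of all 3 genes overlapped on every probe set.

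SIGIRR, a receptor with a single immunoglobulin domain that dampens signalling by this family, was the member with the highest percentile with vehicle, above 69.5% of genes. On 52940_at the estradiol arrays read 7.70, 7.74, 7.74 and 7.71 and the vehicle arrays 7.77, 7.69, 7.72 and 7.71. The difference was 0.0017 ± 0.04 (SE), and that of the second probe set, 218921_at, −0.02 ± 0.07.

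Over all 19 probe sets 4 were called, beside 10.4% of all probe sets, those of IL18RAP and IL18R1 and 1 each of IL1R1 and IL1RL1. The other 15 differed by −0.13 to 0.38.

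**Figure D4:**
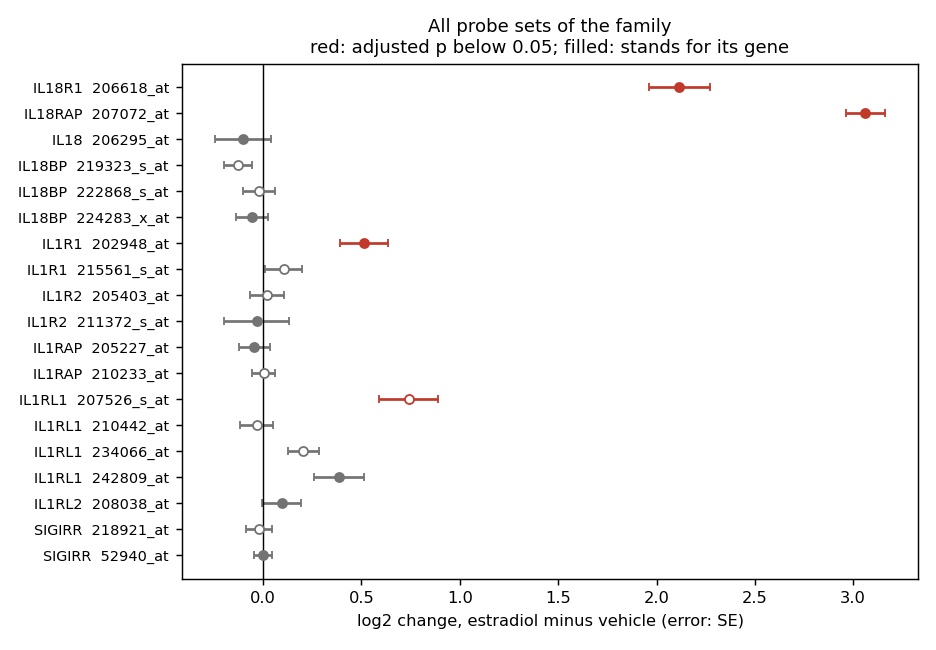
Log2 difference of estradiol minus vehicle (error bars: SE) at each of the 19 probe sets of the family; red marks an adjusted p below 0.05 over all probe sets and filled points stand for their gene. The 2 probe sets of the IL-18 receptor lie at 2.12 and 3.06 and the remaining 17 at 0.74 or less.

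Other genes of the pathway were taken from 6 lists of 80 genes, of which 77 were measured, and 13 rose and 4 fell (limma, adjusted p below 0.05). That is 22.1% of them beside 17.9% of all genes, and their median difference was 0.02. The lists were chosen with earlier results of these data known, so nothing is read from this share or those of single lists.

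Among 10 IL-1 family ligands and antagonists, 0 were called. IL1A, which encodes IL-1 alpha, had the smallest p and differed by 0.30 ± 0.11 (SE, adjusted p = 0.0882). Its vehicle level was 4.87 ± 0.08 (SD, n = 4). The other of its 2 probe sets showed −0.14, and with the mean of both IL1A differed by 0.08 (adjusted p = 0.348). The list median was 0.04. Of 12 other TIR domain receptors, TLR1 to TLR10 among them, 0 were called and the differences ran from −0.14 to 0.16. The smallest p there was that of TLR3, a receptor for double-stranded RNA, at −0.12 ± 0.09 (adjusted p = 0.459).

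Among 17 measured signalling adaptors and kinases 3 rose and 2 fell, with a median of 0.02. PELI1, a ubiquitin ligase of the Pellino family that acts on IRAK kinases, rose 2.90-fold, with levels of 8.59, 8.46, 8.46 and 8.57 against 7.12, 6.83, 7.04 and 6.94. The groups lay far apart, with a difference of 1.54 ± 0.07 (SE, adjusted p = 9.33e-07), but only 1 of its 3 probe sets was called, the lowest showed 0.08, and with their mean the difference was 0.58. Its relative PELI2 rose by 0.35 ± 0.07 on 1 of 2 probe sets, the other showing −0.18, and with the mean of both its difference was 0.09 (adjusted p = 0.401). MAP3K7, the kinase TAK1, rose by 0.30 ± 0.05, with 3 of its 4 probe sets called. The falls were small, MYD88 at −0.20 ± 0.05 (adjusted p = 0.0318) and IRAK1 at −0.21 ± 0.05 (adjusted p = 0.0227), both named after their values had been seen. In the fit over all probe sets the only MYD88 probe set was not called, and 1 of 2 for IRAK1 was.

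Of 13 genes of the inflammasome and cytokine processing, 3 rose, 0 fell and 10 were not called, with a median of −0.0010. PYCARD, the adaptor ASC that gathers inflammasomes, rose 2.08-fold (1.06 ± 0.06 SE, adjusted p = 3.76e-06), from 8.72 ± 0.10 (SD, n = 4) to 9.78 ± 0.06. CASP8, an apoptotic protease, rose by 0.54 ± 0.08 with 2 of 3 probe sets called, the lowest of them at −0.12, and with their mean it differed by 0.27 (adjusted p = 0.0424). NAIP, a sensor of bacterial proteins, rose by 0.35 ± 0.07 on 1 of 3 probe sets (0.11, adjusted p = 0.409, with their mean). CASP1, the protease that matures IL-18, had a vehicle level of 4.39, below the array medians, and differed by −0.04 ± 0.06 (adjusted p = 0.725), and was named after its values had been seen.

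Of 15 measured response genes, which NF-kB signals from these receptors are known to induce, 6 rose, 1 fell and 8 were not called, with a median of 0.19. This was 46.7% called beside 17.9% of all genes, and several of these genes also answer to many other signals. As the lists were chosen with earlier results of these data known, this share is a description only. IER3, an early survival gene, rose 3.34-fold (1.74 ± 0.08 SE, adjusted p = 1.73e-06), and NFKBIZ, a nuclear NF-kB cofactor, rose by 0.93 ± 0.15 with both of its probe sets called. CXCL2, a neutrophil attractant, rose by 0.70 ± 0.12, called on 1 of its 3. With the mean of those 3, CXCL2 differed by 0.23 (adjusted p = 0.0737). NFKBIA, TNFAIP3 and IL6 also rose, by 0.62, 0.41 and 0.34, and ICAM1 fell by 0.36, named after their values had been seen, as was IFNG. NFKBIA was called on 1 of 2 probe sets, the other at −0.14, TNFAIP3 on 1 of 2, the other at 0.19, IL6 on its only probe set and ICAM1 on 2 of 3. IFNG, interferon gamma, the cytokine that IL-18 is best known to induce in lymphocytes, stood at 3.15 with vehicle and differed by 0.05 ± 0.08 (adjusted p = 0.745).

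Among 10 other interleukin receptor chains used by T, NK or mast cells 1 rose and 1 fell. IL4R, the IL-4 receptor chain, rose 2.09-fold, from 6.93 ± 0.09 (SD, n = 4) to 7.99 ± 0.08, without overlap. The difference was 1.06 ± 0.06 (SE, adjusted p = 4.08e-06). IL15RA, the IL-15 binding chain, fell by 0.66 ± 0.04 (adjusted p = 1.24e-05). The chains of the IL-12 receptor, which acts with IL-18 in lymphocytes, were not called, IL12RB1 at 0.11 and IL12RB2 at −0.05, the latter at a vehicle level of 3.07, both named after their values had been seen.

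**Figure D5:**
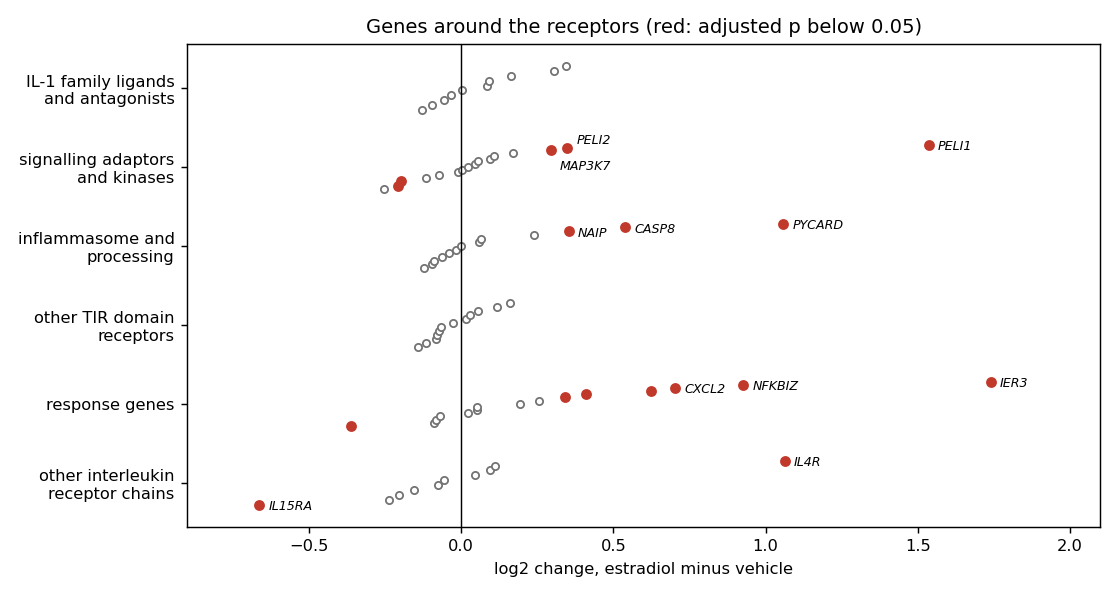
Log2 difference of estradiol minus vehicle for the 77 measured genes of 6 pathway lists, 1 point a gene, spread vertically within a list by rank; red marks an adjusted p below 0.05 over all genes. PELI1, PYCARD, IER3 and IL4R lie at 1.06 or more, while the ligand and TIR receptor lists hold no red point.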

How the data were processed

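Total RNA of 8 K562 samples was amplified, labelled with biotin and hybridized to arrays. Deposited were log2 levels per probe set; the submitters' processing notes name RMA, without a version. RMA forces a common distribution on the probe intensities of the arrays, before they are summarized per probe set, and compresses changes of dim genes. The deposited levels still differed slightly between arrays, with medians from 4.97 to 5.08. Detection calls were not used here. Of 54675 probe sets, 62 were controls and 41091 had 1 gene symbol; a gene was represented by its brightest probe set (mean of 8 arrays). limma 3.58.1 in R 4.3.3 (lmFit, eBayes, no filter, no block) tested estradiol minus vehicle two-sided over 19775 genes, and separately over 54613 probe sets, with Benjamini-Hochberg adjustment and calls below 0.05. It was tested on simulated data. Members and lists were chosen with earlier results of these data known. Named were all members, up to 3 called genes per list with the largest change (otherwise the smallest p), 4 measured genes on each side of the cluster, and the 5 genes most like the member with the largest change. Every other gene named, markers included, was picked with its values in view. Promoter sequences are those of RefSeq (GRCh38.p14). Alternatives covered scaling, dim genes, probe sets, variance models, single arrays, the replicate number and the threshold. Figures used matplotlib 3.10.9.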

Additional observations from a re-analysis of the deposited data

Results flagged for a closer look

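Of 90 groups of 4 arrays that were examined, 3 had an array far from the others, where chance gives about 1 in 20. IL1R2 on 211372_s_at read 4.57 in estradiol replicate 1 against 3.91 to 3.99 in the other estradiol arrays. The same probe set read 4.53 in vehicle replicate 2 against 3.98 to 4.05. For IL15RA vehicle replicate 2 stood lowest at 7.54, with 7.64 to 7.66 on the remaining 3 arrays, and its difference ran from −0.69 to −0.64 over all alternatives.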

How the results depend on the processing

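IL18RAP and IL18R1 were called in all 19 alternatives, with differences of 2.97 to 3.13 and 2.01 to 2.27. The count of called members ran from 2 to 4. IL1R1 was called wherever it was tested except at adjusted p below 0.01, and it was not in the fits of genes with a mean level of at least 4 or 5, which held 8 and 5 of the 10 members. IL1RL1 was called in 6 of 18 alternatives at the main threshold: median centring, the filter at 5, the mean of all probe sets, the trend and robust fit, and without estradiol replicate 1 or vehicle replicate 4. The other members were called in none. Called pathway list genes ran from 12 to 20. Genes called over the table were 2179 at adjusted p below 0.01 in place of 3538, and 2732 to 3551 without 1 array. Without estradiol replicate 3 IL1A was called (0.39, adjusted p = 0.0288), the only call of IL1A in 18 alternatives at the main threshold. The difference of IL1A ran from 0.08 to 0.39 over all alternatives. At adjusted p below 0.01, PELI2, MYD88, IRAK1, TNFAIP3 and IL6 were not called, which left 12 of 17 list genes. The share of rises among called genes ran from 41.6% to 54.5%.

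Same-numbered arrays of the groups deviated with correlations of −0.21 to 0.11 over all genes, beside −0.15 to 0.22 for arrays with different numbers. The same number gave the highest correlation for estradiol replicate 3 alone, so the numbers were not taken as pairs. With the replicate block 2598 genes, 3 members and 16 list genes were called. The number of arrays limits precision, and levels near the lower quartiles were not shown to be above background.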
